A study of Mus musculus with 8 samples.

Results

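The lysyl oxidase family was examined in cardiac fibroblasts of the mouse. Its 5 genes, Lox, Loxl1, Loxl2, Loxl3 and Loxl4, were taken by name from the 54532 genes of the expression table, and all 5 passed the filter on low values described below. The cells were sorted for PDGFRα, a growth factor receptor carried by fibroblasts, from infarcts on day 7 after coronary occlusion. Of the 8 samples, 4 were labelled FTbR2KO (fibroblast-specific loss of TbR2, the TGF-β type 2 receptor encoded by Tgfbr2) and 4 were TbR2fl/fl controls, which carry the floxed gene. Mice of both genotypes had received tamoxifen, and the cells were not cultured. The sources used here do not give the Cre driver, the strain or the age of the mice. The labels do not state whether every sample is a different mouse, so the p-values reflect the spread among these samples, which may be partly technical.

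Lysyl oxidases are secreted copper enzymes that oxidise lysine side chains in collagen and elastin. The aldehydes formed in this way react with neighbouring chains to give the covalent cross-links that make a fibre insoluble and stiff. In a healing infarct this cross-linking is part of how the collagen scar gains tensile strength, and TGF-β is a known inducer of lysyl oxidase in cultured fibroblasts. Lox and Loxl1 have amino-terminal regions that are removed by proteolysis, whereas Loxl2, Loxl3 and Loxl4 carry repeated scavenger receptor cysteine-rich domains ahead of the catalytic domain.

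Of the 5 members, only the upstream region of Loxl4 was examined, from the RefSeq promoter table (GRCm38.p6). No entry was found there for Loxl1, Loxl2 or Loxl3, and the upstream region of Lox was left out. The sequence is the 250 bases before the RefSeq start, at chr19:42612807-42613056 on the minus strand, with the match to a searched motif in capitals.
Loxl4 upstream region: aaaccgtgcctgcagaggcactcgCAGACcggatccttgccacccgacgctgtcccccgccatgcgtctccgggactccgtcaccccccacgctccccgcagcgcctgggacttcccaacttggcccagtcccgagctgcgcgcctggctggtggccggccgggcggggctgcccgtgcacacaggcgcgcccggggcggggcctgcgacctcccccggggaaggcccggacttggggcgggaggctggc
Its GC content was 76.0%, above that of 96.7% of the 32851 promoters in the table (median 52.4%). On either strand it held 1 match to the Smad-binding element CAGAC, beginning 226 bases before the start, a motif that 42.2% of all promoter regions of this length contain. No match was found to the hypoxia response core ACGTG (16.6% of promoters), the AP-1 element TGANTCA (6.75%) or the TATA box TATAAA (12.4%). The deposited table starts the gene slightly upstream of RefSeq, so the last bases shown lie inside the gene as the table places it. These matches are descriptions of the letters in this window and not evidence of binding.

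Library depth, as whole reads recovered from the table, was 16.1 to 22.9 M in the FTbR2KO-labelled libraries and 21.2 to 28.7 M in the controls. All 10 fibroblast markers passed the filter on low values, and their summed level was 10135 to 12029 FPKM in the FTbR2KO-labelled libraries and 10864 to 15392 FPKM in the controls. Among markers of other cells, 3 of 12 for macrophages and leukocytes, 2 of 10 for endothelium and 1 of 10 for cardiomyocytes passed. For mural cells 9 of 10 passed, and for epicardium and mesothelium 9 of 10. None of the markers listed was at 0 in every library. The mural list summed to 60.5 to 103 FPKM in the FTbR2KO-labelled libraries and 65.1 to 90.7 FPKM in the controls. The epicardial and mesothelial list summed to 77.1 to 126 against 48.6 to 94.2 FPKM. Of this, Aldh1a2 alone gave 57.9 to 87.8 against 31.9 to 69.1 FPKM. The leukocyte list summed to 9.17 to 13.9 against 11.2 to 14.3 FPKM, the endothelial list to 21.0 to 27.5 against 20.2 to 29.9 FPKM, of which Tek alone gave 16.7 to 23.3 against 15.1 to 26.8 FPKM, and the cardiomyocyte list to 2.72 to 5.82 against 4.12 to 5.15 FPKM. Tgfbr2 itself was higher in the FTbR2KO-labelled libraries (56.9 to 60.0 FPKM) than in the controls (40.3 to 49.6 FPKM), without overlap but with a limma adjusted p of 0.571. This goes against the label, but the level of the gene as a whole leaves the state of single exons unknown. Every direction given here refers to the libraries as labelled.

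Lox and Loxl1 dominated the family in both groups. FPKM, the unit of the table, counts fragments per kilobase of a gene and adjusts them for depth, so levels of different genes can be set side by side. Loxl1 averaged 641 ± 66.7 FPKM in the FTbR2KO-labelled libraries and 706 ± 13.6 FPKM in the controls (SD, n = 4 each), and Lox averaged 580 ± 143 and 533 ± 152 FPKM. Loxl2 and Loxl3 came next at nearly equal levels, and Loxl4 was lowest. Over all 8 libraries Loxl1 made up 47.8% of the family's summed FPKM, Lox 38.5%, Loxl3 6.76%, Loxl2 6.61% and Loxl4 0.398%. Among the 11667 genes tested, the level of Lox lay above 99.6% of genes, that of Loxl1 above 99.7%, those of Loxl2 and Loxl3 above 96.6% and 96.8%, and that of Loxl4 above 50.2%.

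The order of the neighbouring pairs was not fixed. Loxl1 exceeded Lox in 6 of 8 libraries, with Loxl1 over Lox at 0.854 to 1.52 in the FTbR2KO-labelled libraries and at 1.00 to 1.71 in the controls. Loxl2 exceeded Loxl3 in 3 of 8 libraries, and their ratio ran from 0.939 to 1.14 in the FTbR2KO-labelled libraries and from 0.771 to 1.14 in the controls. Neither pair therefore differed beyond its spread between libraries. The steps between pairs were clear, since Lox was at least 4.41 times Loxl3 and 4.85 times Loxl2, and Loxl3 was at least 14.5 times Loxl4, in every library.

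**Figure D1:**
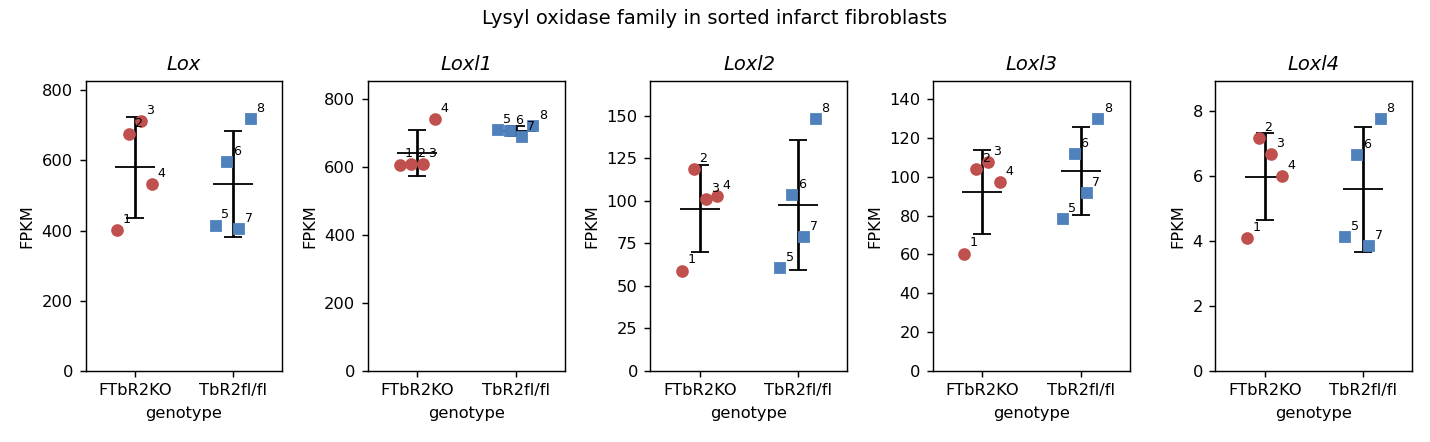
FPKM of each lysyl oxidase gene (vertical axis, from 0, own scale per gene) in the 4 FTbR2KO-labelled libraries (red circles) and the 4 TbR2fl/fl controls (blue squares), numbered as in the sample titles; the horizontal mark is the mean and the bars are 1 SD. The groups overlap for every gene, and for Loxl1 library 4 (742 FPKM) stands above 3 libraries at 607 to 609 FPKM.

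The genotype comparison asked whether loss of TbR2 alters these enzymes' transcripts in infarct fibroblasts. No member passed the test: 0 of 5 rose and 0 of 5 fell by limma on log2(FPKM + 1) at a Benjamini-Hochberg adjusted p of 0.05 over all 11667 tested genes, against 0.0171% of all tested genes called. The 2 genes called were Gpt2 and Prm1, both higher in the FTbR2KO-labelled libraries and named here after their values were seen. At an unadjusted p under 0.05 the count was 0 of 5 members and 1004 of all tested genes. The groups overlapped for each of the 5 members, while they did not overlap for 4.41% of tested genes. Log2 fold changes lay above 0 for 3 members and below 0 for 2, with a median of 0.00090, beside 48.8% above 0 and a median of -0.0045 over all tested genes. After conversion to TPM, which moved the median of all tested genes to 0.15, all 5 lay above 0 with a median of 0.17. Leaving out 1 library put between 1 (without TbR2fl/fl 7) and 4 (without FTbR2KO 1) of the members above 0. In sorted bulk cells, fewer cells of a type and less RNA per cell cannot be told apart.

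Lox, the founding enzyme of the family, lies on chromosome 18 from 52516069 to 52529867 on the minus strand (GRCm38 coordinates of the deposited table). It measured 400, 676, 713 and 532 FPKM in FTbR2KO 1 to 4, against 414, 596, 404 and 719 FPKM in TbR2fl/fl 5 to 8. Each group held libraries near the bottom and near the top of the range, and the ranges coincided almost fully. The log2 fold change was 0.13 with a standard error (SE) of 0.24, a 95% confidence interval of -0.42 to 0.68 and a limma adjusted p of 0.897. On this scale the interval spans fold changes of 0.748 to 1.60. The exact two-sided permutation p for the FPKM values was 0.743, where 4 against 4 samples allow none below 0.0286.

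Loxl1, which in mice is needed for the renewal of elastic fibres, lies on chromosome 9 from 58287738 to 58313186 on the minus strand. It measured 607, 608, 609 and 742 FPKM in FTbR2KO 1 to 4, against 708, 706, 688 and 721 FPKM in TbR2fl/fl 5 to 8. FTbR2KO 1 to 3 lay below every control and FTbR2KO 4 above every control. The log2 fold change was -0.14 (SE 0.11, interval -0.40 to 0.11, limma adjusted p = 0.736; exact permutation p = 0.143), and without FTbR2KO 4 it was -0.21 (adjusted p = 0.467). The interval corresponds to fold changes of 0.759 to 1.08. Loxl1 had the narrowest interval of the 5 genes.

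Loxl2, which cross-links type IV collagen of basement membranes as well as fibrillar collagen, lies on chromosome 14 from 69609068 to 69695834 on the plus strand. It measured 59.0, 118, 101 and 103 FPKM in FTbR2KO 1 to 4, against 60.3, 103, 78.5 and 148 FPKM in TbR2fl/fl 5 to 8. Both the lowest and the highest pair of values were split between the genotypes. The means were 95.3 ± 25.5 and 97.5 ± 38.1 FPKM, with a log2 fold change of 0.00090 (SE 0.29, interval -0.66 to 0.66, limma adjusted p = 0.999; exact permutation p = 0.83). This was the widest interval of the family, spanning fold changes of 0.633 to 1.58. An antisense gene, Gm27177, covers 301 bases of Loxl2 exons, but it drew 17 reads in all libraries together, against 96960 for Loxl2.

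Loxl3, whose loss in mice disturbs palate and spine development, lies on chromosome 6 from 83034173 to 83052562 on the plus strand. It measured 60.4, 104, 107 and 97.4 FPKM in FTbR2KO 1 to 4, against 78.1, 112, 91.6 and 130 FPKM in TbR2fl/fl 5 to 8. FTbR2KO 1 was lowest and TbR2fl/fl 8 highest, and of the other 6, 2 controls lay below and 1 control above the 3 FTbR2KO-labelled libraries. The log2 fold change was -0.16 (SE 0.21, interval -0.65 to 0.32, limma adjusted p = 0.845; exact permutation p = 0.514). Exons of Htra2, a protease gene on the opposite strand, cover 535 bases or 11.6% of the exon length of Loxl3. The sources used here do not say whether strand was used in counting, which leaves reads in that stretch uncertain; Htra2 had 5344 reads in all libraries together and Loxl3 had 83875.

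Loxl4, the least studied member, lies on chromosome 19 from 42593982 to 42612813 on the minus strand. It measured 4.09, 7.14, 6.67 and 5.98 FPKM in FTbR2KO 1 to 4, against 4.11, 6.63, 3.83 and 7.75 FPKM in TbR2fl/fl 5 to 8. The controls alone covered a wider range than the FTbR2KO-labelled libraries. The log2 fold change was 0.11 (SE 0.22, interval -0.38 to 0.60, limma adjusted p = 0.905; exact permutation p = 0.800). These values rested on 299 to 929 reads per library, a counting error of at most 5.78%, and those of the other members on at least 4827 reads. For Lox, Loxl2, Loxl3 and Loxl4 counting error was therefore small beside the spread among libraries of the same genotype. For Loxl1 it was at most 0.536%, and FTbR2KO 1 to 3 lay as close together as 607 to 609 FPKM.

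**Figure D2:**
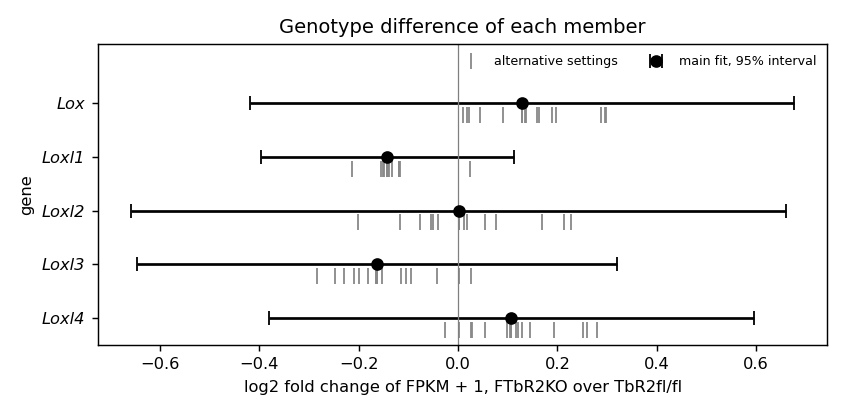
Log2 fold change of FPKM + 1, FTbR2KO over TbR2fl/fl (horizontal axis), for each gene: black points with 95% confidence intervals are the limma fit on all 8 libraries, and grey ticks are the 18 alternative settings per gene. Every interval includes 0, and the alternatives for every gene except Lox fall on both sides of 0.

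Variation within the genotypes was large for Lox, Loxl2, Loxl3 and Loxl4 and small for Loxl1. Over all 8 libraries of both genotypes, the highest exceeded the lowest 1.80-fold for Lox, 2.51-fold for Loxl2, 2.15-fold for Loxl3, 2.02-fold for Loxl4 and 1.22-fold for Loxl1. The pooled SD within groups on the log2 scale was 0.39 for Lox, 0.50 for Loxl2, 0.35 for Loxl3 and 0.37 for Loxl4, beside a median of 0.16 over all tested genes. That of Loxl1 was 0.10, above that of 20.3% of all tested genes. Of the 83 tested genes whose mean log2 level was within 1 of its own, 96.4% had a larger one. The same share was 9.65% for Lox, 2.81% for Loxl2, 11.4% for Loxl3 and 6.20% for Loxl4. The SD of Loxl1 was 10.4% of the mean in the FTbR2KO-labelled libraries and 1.93% in the controls.

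The 4 variable members were high and low in the same libraries. FTbR2KO 1 and TbR2fl/fl 5 were among the 3 lowest libraries for each of these 4 genes, and TbR2fl/fl 8 was the highest for all of them. In FTbR2KO 1 the levels were 0.579 (Loxl2) to 0.709 (Lox) times each gene's median over the 8 libraries, and in TbR2fl/fl 8 they were 1.23 (Loxl4) to 1.45 (Loxl2) times it. After each group's mean was subtracted, Pearson's r of log2(FPKM + 1) over the 8 libraries was 0.91 to 0.97 for the 6 pairs among these 4 genes. The highest value was for Lox and Loxl4 (0.97), whose ratio stayed between 88.9 and 107 in all libraries, although their levels differ so widely. Within the genotypes r for these pairs was 0.88 to 0.98 in the FTbR2KO-labelled libraries and 0.91 to 1.00 in the controls (n = 4 each). The former rested mainly on FTbR2KO 1, whose log2 levels of these 4 genes lay at -0.64 to -0.43 from the group mean. FTbR2KO 2 to 4 lay at -0.088 to 0.36 and shared no order. Among them Lox and Loxl3 were highest in FTbR2KO 3, and Loxl2 and Loxl4 in FTbR2KO 2. For Loxl1 with the other members r was 0.012 to 0.24 over the 8 libraries, -0.14 to 0.25 in the FTbR2KO-labelled libraries and 0.55 to 0.77 in the controls, where Loxl1 ranged from 688 to 721 FPKM. These correlations are descriptions over 8 libraries that share their depth scaling, and the ratios do not depend on that scaling.

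**Figure D3:**
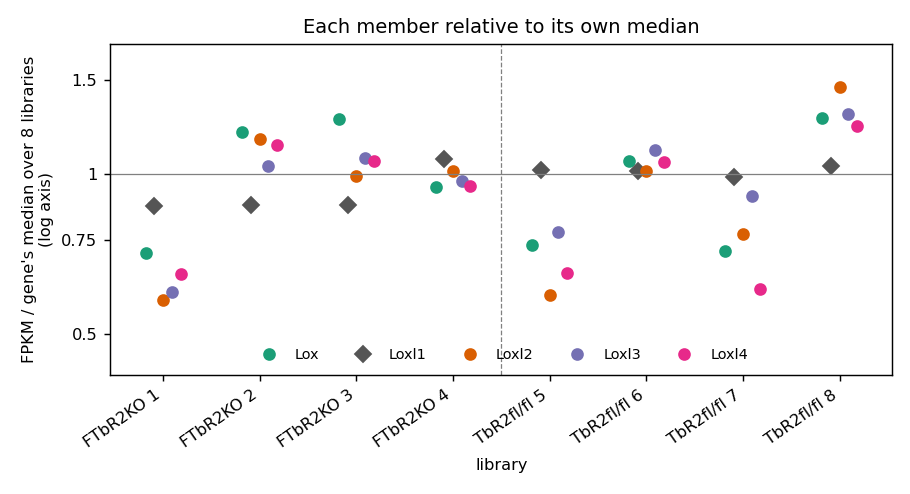
Level of each gene in each library (horizontal axis) divided by that gene's own median over the 8 libraries (vertical axis, log scale), with FTbR2KO-labelled libraries left of the dashed line and TbR2fl/fl controls right of it. Circles of Lox, Loxl2, Loxl3 and Loxl4 fall together in FTbR2KO 1, TbR2fl/fl 5 and TbR2fl/fl 7 and lie highest in TbR2fl/fl 8, while the diamonds of Loxl1 stay between 0.871 and 1.06.

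Many other genes shared this pattern. The first principal component of the tested genes other than the family, with 32.9% of the variance, ran from -24.4 in FTbR2KO 1 and -20.9 in TbR2fl/fl 5 to 19.0 in TbR2fl/fl 8. Its score had an r of 0.96 with Loxl3, 0.94 with Loxl2, 0.81 with Loxl4, 0.80 with Lox and 0.33 with Loxl1 over the 8 libraries. Loxl1 had its higher r with the second component (22.8% of the variance, r = 0.89), on which FTbR2KO 1 to 3 scored -19.6 to -6.73 and the other 5 libraries 4.78 to 11.6. Group means were not subtracted for r with the components, which therefore includes the difference between the genotypes. FTbR2KO 1 and TbR2fl/fl 5 also differed from the others in the authors' depth scaling, whose total exceeded the recovered reads by 7.90% and 6.12%, against -3.47% to 0.573% in the other libraries. Without these 2 libraries the values of r among the 4 variable members were 0.85 to 0.97, over the 6 left of both genotypes together. The part of the scaling in the family's pattern was not tested.

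**Figure D4:**
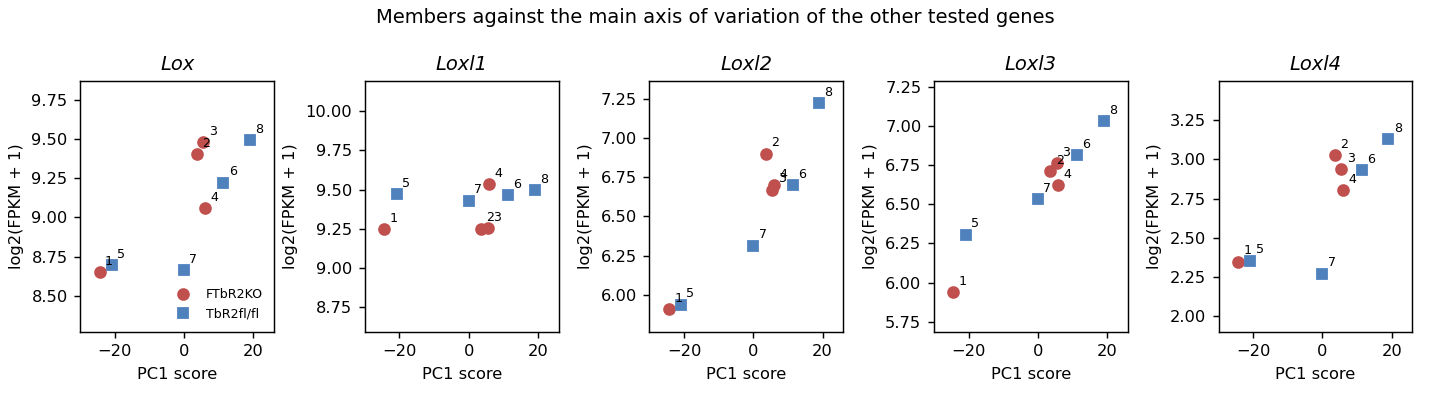
Log2(FPKM + 1) of each gene (vertical axis, each spanning the same log2 range) against the score of each library on the first principal component of all other tested genes (horizontal axis); red circles are FTbR2KO-labelled libraries, blue squares are TbR2fl/fl controls, numbered as in the titles. Loxl2 and Loxl3 rise along the axis in both genotypes, Lox and Loxl4 do so with library 7 low, and Loxl1 stays within a narrow range.

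Gene by gene, the patterns most like those of the members were found among 10405 other protein-coding tested genes, by r after subtraction of the group means over the 8 libraries. For Lox these were Tpm1, a tropomyosin of actin filaments (r = 0.99), the transcription factor gene Atf1 (0.99) and Col11a1, a fibrillar collagen chain (0.99), with Loxl4 at rank 24. For Loxl2 they were Gatad2a, a subunit of the NuRD chromatin complex, Tgfb1i1, a focal adhesion adaptor also called Hic-5, and the actin cross-linker gene Actn4 (r = 0.98 to 0.99), with Loxl3 at rank 78. Loxl3 was matched most closely by Vgll3, a cofactor of TEAD transcription factors, by Ppp4r1, a phosphatase subunit, and by Dnajc25 (r = 0.99 to 1.00). Loxl4 was matched by Fam45a, Cdca4 and Atf1 (r = 0.98 to 0.99), with Lox at rank 10. For Loxl1 the closest were Med22, a Mediator subunit, the ephrin receptor gene Ephb3 and the nuclear receptor gene Esrra (r = 0.98 to 0.99), and the other members ranked no higher than 3116. The Loxl1 pattern was mainly 1 library, with FTbR2KO 4 at 0.21 from its group mean in log2 and the others at -0.074 to 0.031. Its values of r therefore mostly reflect FTbR2KO 4. All genes named here were picked as the highest of 10405 over 8 libraries, which by itself makes r high.

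Lists of genes with a known link to lysyl oxidase were set beside the family. The 17 known hypoxia-induced genes had a mean log2 level of 3.15 to 3.38 in the FTbR2KO-labelled libraries and 3.03 to 3.53 in the controls, lowest in TbR2fl/fl 5 and highest in TbR2fl/fl 8. That mean, without subtraction of group means, had an r of 0.83 to 0.92 with the 4 variable members and 0.087 with Loxl1. The 21 known TGF-β-induced genes gave 0.73 to 0.86 and 0.065. Such values were not particular to these lists. With the variable members r was 0.58 to 0.90 for copper supply genes, 0.58 to 0.86 for lysyl hydroxylases and their partners and 0.45 to 0.78 for fibrillar collagens and elastin. The lists of type IV collagens, fibre assembly partners, precursor proteases and other amine oxidases gave -0.36 to 0.20. For markers of other cells, r with the 4 variable members was 0.65 to 0.89 for the mural list. The summed level of that list was 60.5 to 103 FPKM in the FTbR2KO-labelled libraries and 65.1 to 90.7 FPKM in the controls. The values of r were 0.64 to 0.73 for the leukocyte list, 0.54 to 0.84 for the cardiomyocyte list and 0.37 to 0.60 for the endothelial list. In every library 6 of 12 leukocyte, 8 of 10 cardiomyocyte and 6 of 10 endothelial markers stayed under 1 FPKM. The means of these lists therefore rest partly on genes near 0 FPKM. For the epicardial and mesothelial list r was -0.32 to 0.14, and for the fibroblast list -0.60 to -0.40. In the genotype comparison 9 of 9 tested epicardial and mesothelial markers (median log2 fold change 0.40), 8 of 9 mural and 7 of 10 fibroblast markers lay above 0, and none passed the test. These counts rested on single libraries: without TbR2fl/fl 7 the epicardial count was 5 of 9 (median 0.019), without FTbR2KO 2 the mural count was 4 of 9 (median -0.018), and without TbR2fl/fl 5 the fibroblast count was 5 of 10 (median -0.0076). The part of these cells in the pattern was not tested. None of the 15 tested hypoxia genes or the 21 tested TGF-β genes passed the genotype test in either direction, and their median log2 fold changes were 0.037 (6 of 15 below 0) and -0.057 (14 of 21 below 0). Single libraries turned both directions. The TGF-β list had 8 of 21 below 0 without FTbR2KO 1 (median 0.022) and 10 of 21 without TbR2fl/fl 8 (median 0.015). The median of the hypoxia list was -0.0035 without FTbR2KO 2, -0.012 without FTbR2KO 3 and -0.025 without TbR2fl/fl 5.

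No transcript of the family's substrates passed the test, and most had log2 fold changes below 0. Of 10 fibrillar collagen and elastin genes 9 were tested, 0 passed, and 8 of 9 lay below 0 with a median log2 fold change of -0.20 (5 of 9 after quantile normalization, median -0.14, and 6 of 9 after conversion to TPM, median -0.037). For Col1a1, which codes for the major type I collagen chain, the highest FTbR2KO-labelled library (4508 FPKM) was below the lowest control (4682 FPKM), although limma's adjusted p was 0.571. The family summed to 1131, 1513, 1537 and 1480 FPKM in FTbR2KO 1 to 4, against 1265, 1523, 1266 and 1726 FPKM in TbR2fl/fl 5 to 8, so the groups overlapped. The summed FPKM of the 9 fibrillar collagens was 8963, 10458, 9862 and 11587 in FTbR2KO 1 to 4, against 12727, 13013, 11820 and 11805 in the controls, with no overlap. The nearest values were 11587 (FTbR2KO 4) and 11805 (TbR2fl/fl 8), and these sums were not compared in another scaling. Among single tested genes 4.41% did not overlap. For every 100 FPKM of fibrillar collagen there were 12.6, 14.5, 15.6 and 12.8 FPKM of lysyl oxidases in the FTbR2KO-labelled libraries, against 9.94, 11.7, 10.7 and 14.6 FPKM in the controls. The means were 13.9 ± 1.42 and 11.7 ± 2.05 (SD, n = 4 each), and the groups overlapped through TbR2fl/fl 8. No p is given for this ratio, which sums over members. The 6 type IV collagen genes, coding for a substrate of Loxl2, all passed the filter; 0 passed the genotype test and 5 lay above 0 (median 0.11).

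**Figure D5:**
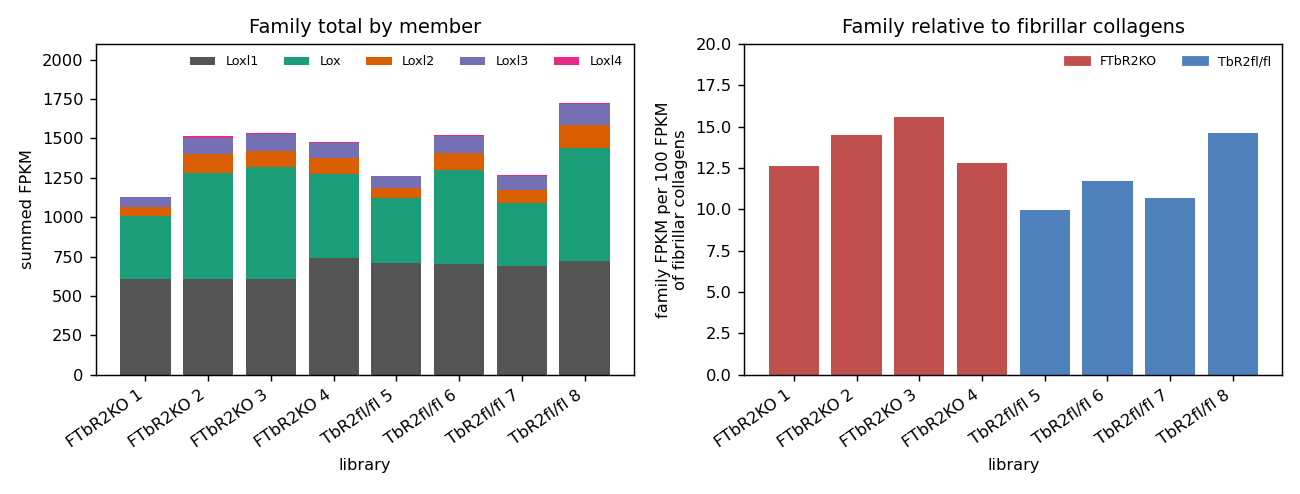
Left, summed FPKM of the 5 genes per library as stacked bars from 0, coloured by gene; right, summed FPKM of the family per 100 FPKM of the 9 fibrillar collagen genes, with FTbR2KO-labelled libraries in red and TbR2fl/fl controls in blue. Lox and Loxl1 fill most of each bar on the left, and on the right TbR2fl/fl 8 (14.6) lies among the FTbR2KO-labelled libraries (12.6 to 15.6).

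Partners of the enzymes showed no called change. Of 20 genes whose products assemble or decorate collagen and elastic fibres, all were tested, 0 passed and 11 lay above 0 (median 0.057); without FTbR2KO 2 or FTbR2KO 4 it was 10 of 20, with medians of 0.0061 and 0.014. Efemp1, which encodes the elastic fibre protein fibulin 3, measured 36.5, 24.5, 40.6 and 13.2 FPKM in FTbR2KO 1 to 4, against 10.4, 8.79, 21.7 and 8.54 FPKM in TbR2fl/fl 5 to 8 (a log2 fold change of 1.14, SE 0.37, adjusted p = 0.571 by limma). FTbR2KO 4 and TbR2fl/fl 7 made the groups overlap. Fbln5, whose product binds LOXL1 and elastin, averaged 129 ± 10.3 FPKM in the FTbR2KO-labelled libraries and 114 ± 11.6 FPKM in the controls (log2 fold change 0.18, SE 0.11). Of 9 genes for proteases that act on lysyl oxidase precursors and their enhancers 7 were tested, 0 passed and 6 lay below 0. Among them Bmp1, the protease that releases active LOX, averaged 91.4 ± 5.22 and 101 ± 8.07 FPKM (a log2 fold change of -0.14, SE 0.095, adjusted p = 0.682 by limma).

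Genes that supply copper and modify lysines before cross-linking showed no called change either. In the copper list 7 of 8 genes were tested and 0 passed, with 3 above 0 and 4 below, and 4 above 0 without FTbR2KO 1 (median 0.0060) or TbR2fl/fl 8 (median 0.025). Atp7a, the transporter that loads copper onto secreted enzymes, measured 3.67, 3.62, 3.89 and 3.63 FPKM in FTbR2KO 1 to 4, against 3.24, 2.83, 3.18 and 3.27 FPKM in TbR2fl/fl 5 to 8. The groups did not overlap, at a log2 fold change of 0.19 (SE 0.067, limma adjusted p = 0.571). Ccs, which delivers copper to superoxide dismutase, did not overlap in the other direction (15.5 ± 1.94 and 20.3 ± 2.17 FPKM; -0.37, SE 0.11, adjusted p = 0.571 by limma). All 13 lysyl hydroxylase and partner genes were tested, 0 passed, and 10 lay below 0 (median -0.048), but 6 of 13 did so without FTbR2KO 1 (median 0.027) or without TbR2fl/fl 8 (median 0.025). Of 7 genes for other amine oxidases and transglutaminases, enzymes that also oxidise amines or cross-link proteins, 3 were tested, 0 passed and 3 lay above 0; Tgm2, the tissue transglutaminase, averaged 17.7 ± 3.27 and 13.7 ± 1.19 FPKM (a log2 fold change of 0.33, SE 0.13, adjusted p = 0.571 by limma). After quantile normalization 4 of 7 protease genes and 8 of 13 hydroxylase and partner genes lay below 0, and the median log2 fold change of the copper list was 0.057, against -0.067 without it. After conversion to TPM none of the 7 protease genes, 3 of 13 hydroxylase and partner genes and 6 of 21 TGF-β genes lay below 0, again beside a median of 0.15 over all tested genes.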

How the data were processed

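RNA was extracted with Trizol from sorted cells and poly(A) RNA went into NEBNext Ultra libraries, per the labels' protocols. The values are the authors' FPKM per gene as deposited, with gene lengths and coordinates per the file headers. Without giving their roles, the submitters' processing notes list HTSeq 0.6.1, Cufflinks 2.1.1, TopHat2 2.0 and CASAVA, and the builds GRCm38.p6 and mm10. FPKM multiplied by gene length and divided by the value of 1 read, found for each sample from its low values, gave whole reads (100% of nonzero values within 0.01 of a whole number), used for depth and 1 alternative.

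The test took genes that reached 1 FPKM in 4 or more of the 8 samples, analysed on log2(FPKM + 1), which understates changes of low genes, with limma 3.58.1 in R 4.3.3 (trended variance, no covariate, two-sided, Benjamini-Hochberg adjustment). Single values were compared by exact permutation (scipy 1.17.1). On simulated reads for this comparison, over a mean of 11508 genes, limma recovered 43.0% of 1.5-fold and 80.2% of 2-fold changes. Of the calls 4.84% were false. Genes were simulated as independent, and the changed ones were drawn at random from all tested genes. More genes were changed per run than the 2 called in the data, which makes the adjusted threshold easier to reach. The pooled SD within groups was 0.35 to 0.50 for Lox, Loxl2, Loxl3 and Loxl4, against a median of 0.16 over all tested genes. These rates therefore do not apply to those members. The alternatives were another pseudocount, 2 filters, 3 other scalings, voom on recovered reads, array weights, an Xist covariate and leaving out libraries.

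Genes were named by rule: the members, Tgfbr2, up to 4 genes per list with the smallest p, 3 genes per member with the most similar pattern, and neighbours of the members. The members and lists were chosen with earlier results of these data known. Exon overlaps are from GENCODE M21 on GRCm38; its start of Lox differs from that of the deposited table.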

Additional observations from a re-analysis of the deposited data

Results flagged for a closer look

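In 3 of 72 groups of 4 libraries checked, 1 value lay far from the rest by Dixon's test at the 95% level, which chance gives in about 1 of 20 groups. Loxl1 in FTbR2KO 4 was 742 FPKM, and the other 3 libraries of that label were at 607 to 609 FPKM. The family's summed level in FTbR2KO 1 was 1131 FPKM, against 1480 to 1537 FPKM in the other libraries of that label. Efemp1 in TbR2fl/fl 7 was 21.7 FPKM, against 8.54 to 10.4 FPKM in the other controls.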

How the results depend on the processing

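No member passed the limma threshold in any of the 18 alternatives, and the smallest adjusted p among these 90 values was 0.420. Of the 90 log2 fold changes 10 had the opposite sign to that reported. Loxl2 did so with array weights (-0.055). After conversion to TPM, which moved the median of all tested genes to 0.15, Loxl1 was at 0.024 and Loxl3 at 0.0027. Leaving out 1 library at a time gave log2 fold changes of 0.010 to 0.30 for Lox, -0.21 to -0.12 for Loxl1, -0.20 to 0.23 for Loxl2, -0.28 to 0.027 for Loxl3 and -0.026 to 0.26 for Loxl4. Loxl3 was above 0 only without FTbR2KO 1, Loxl4 below 0 only without TbR2fl/fl 7, and Loxl2 below 0 without FTbR2KO 2, 3 or 4 or TbR2fl/fl 5 or 7. Over all genes the count called was 2, all higher; it was 1 with the stricter filter, which left fewer genes to test, and ran from 2 to 8 when 1 library was left out (2 to 6 higher, 0 to 2 lower), the 8 being without FTbR2KO 4. Counted in reads not divided by gene length, the family shares were 44.9% for Lox, 38.5% for Loxl1, 8.67% for Loxl2 and 7.56% for Loxl3, so Lox came before Loxl1 and Loxl2 before Loxl3. The family relative to the collagens kept its direction on the log2 scale (difference 0.22). Correlations among Lox, Loxl2, Loxl3 and Loxl4 were 0.79 to 0.97 after quantile normalization or conversion to TPM or without FTbR2KO 1 and TbR2fl/fl 5, settings added after the data were seen, and those of Loxl1 with the others were -0.27 to 0.17. The cause of these shifts was not tested. No paired analysis was possible because the groups share no replicate numbers. With 4 libraries a group, 43.0% of simulated 1.5-fold changes in randomly drawn genes were called, so changes of that size can be missed. Larger ones can be missed too in genes as variable as Lox, Loxl2, Loxl3 and Loxl4. Efemp1, at a log2 fold change of 1.14, was not called (limma adjusted p = 0.571).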
